A study of Mus musculus with 4 samples.

Results

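Eicosanoids are signalling lipids made from arachidonic acid. Cytosolic phospholipase A2 releases the acid from membranes, cyclooxygenases turn it into prostaglandins, and 5-lipoxygenase turns it into leukotrienes. Platelet-activating factor (PAF) is a phospholipid mediator that PAF acetylhydrolases inactivate. Prostaglandin E2 is known to act on dendritic cells, where its receptor EP4 favours maturation and migration, and EP4 is known to do so in Langerhans cells of mouse skin.

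The genes described are 10 listed members: Pla2g4a, Ptgs1, Ptgs2, Ptges, Ptger4, Alox5, Alox5ap, Lta4h, Ltc4s and Pla2g7. Of these, 8 had a probe set that the platform annotation gives to them alone, 13 probe sets in all among 22626 tested and 8 genes among 12393 represented. For Ptgs1 and Alox5 only the promoter windows were analysed here, and no array signal. The 10 genes were chosen by pathway with the log2 differences between the genotypes in view, among which Pla2g7 and Ptgs2 had been seen to be lower, so the genotype differences of these genes are a description and carry no p-value.

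The data came from Langerhans cells, the dendritic cells of the epidermis, sorted from mouse ear skin. There were 2 arrays from AhR-deficient mice, which lack exon 2 of the gene for the aryl hydrocarbon receptor (AhR, a ligand-activated transcription factor), and 2 arrays from wild-type C57BL/6 mice. No Cre, age or strain background of the deficient mice is named in the labels, and the animals behind each sample are not counted. In both groups the mice were untreated and the cells were cultured for 16 hours before living MHC class II-positive cells were sorted to a stated purity above 95%. The labels describe the cultured material once as sheets and once as a cell suspension.

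Signals are log2 values per probe set, a difference is AhR-deficient minus wild-type, and SE is the moderated standard error that limma gives, with n = 2 arrays per genotype. The array medians lay between 5.60 and 5.63 and the 25th percentiles, used below as the mark of a dim probe set, between 4.54 and 4.57. The Langerhans cell marker Cd207 (langerin) read 11.21 and 11.71 in AhR-deficient cells, against 11.00 and 12.06 in the wild type, and Epcam read 11.06 and 10.71 in AhR-deficient cells, against 11.02 and 11.38 in the wild type, all above the arrays' 95th percentiles of 9.16 to 9.24. In a bulk sample, fewer cells of a type and less RNA per cell cannot be told apart. For Actb, the control probe set at the 3' end exceeded that at the 5' end by 2.34 and 2.61 in AhR-deficient cells, against 3.16 and 2.65 in the wild type, without overlap. For Gapdh the same measure was 2.24 and 2.19 in AhR-deficient cells, against 2.60 and 1.97 in the wild type, with overlap. The part of RNA quality in the results below was not tested.

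Across the pathway, the AhR-deficient cells carried less signal for Pla2g7, Ptgs2 and Pla2g4a and more for Ptger4, while Ptges, Alox5ap, Lta4h and Ltc4s differed by less than 0.3 on the log2 scale. Without overlap between genotypes, 6 of the 13 probe sets were lower, where 16.2% of all probe sets were, and 2 were higher, where 19.0% of all were. In limma with Benjamini-Hochberg adjustment, 0.0177% of all probe sets passed an adjusted p of 0.05 as lower and 0% as higher, and the 13 were not among them. The median difference was -0.14 over the 13 probe sets and 0.01 over all probe sets. Since the choice of these genes used this contrast, nothing is read from any of these counts or medians.

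**Figure D1:**
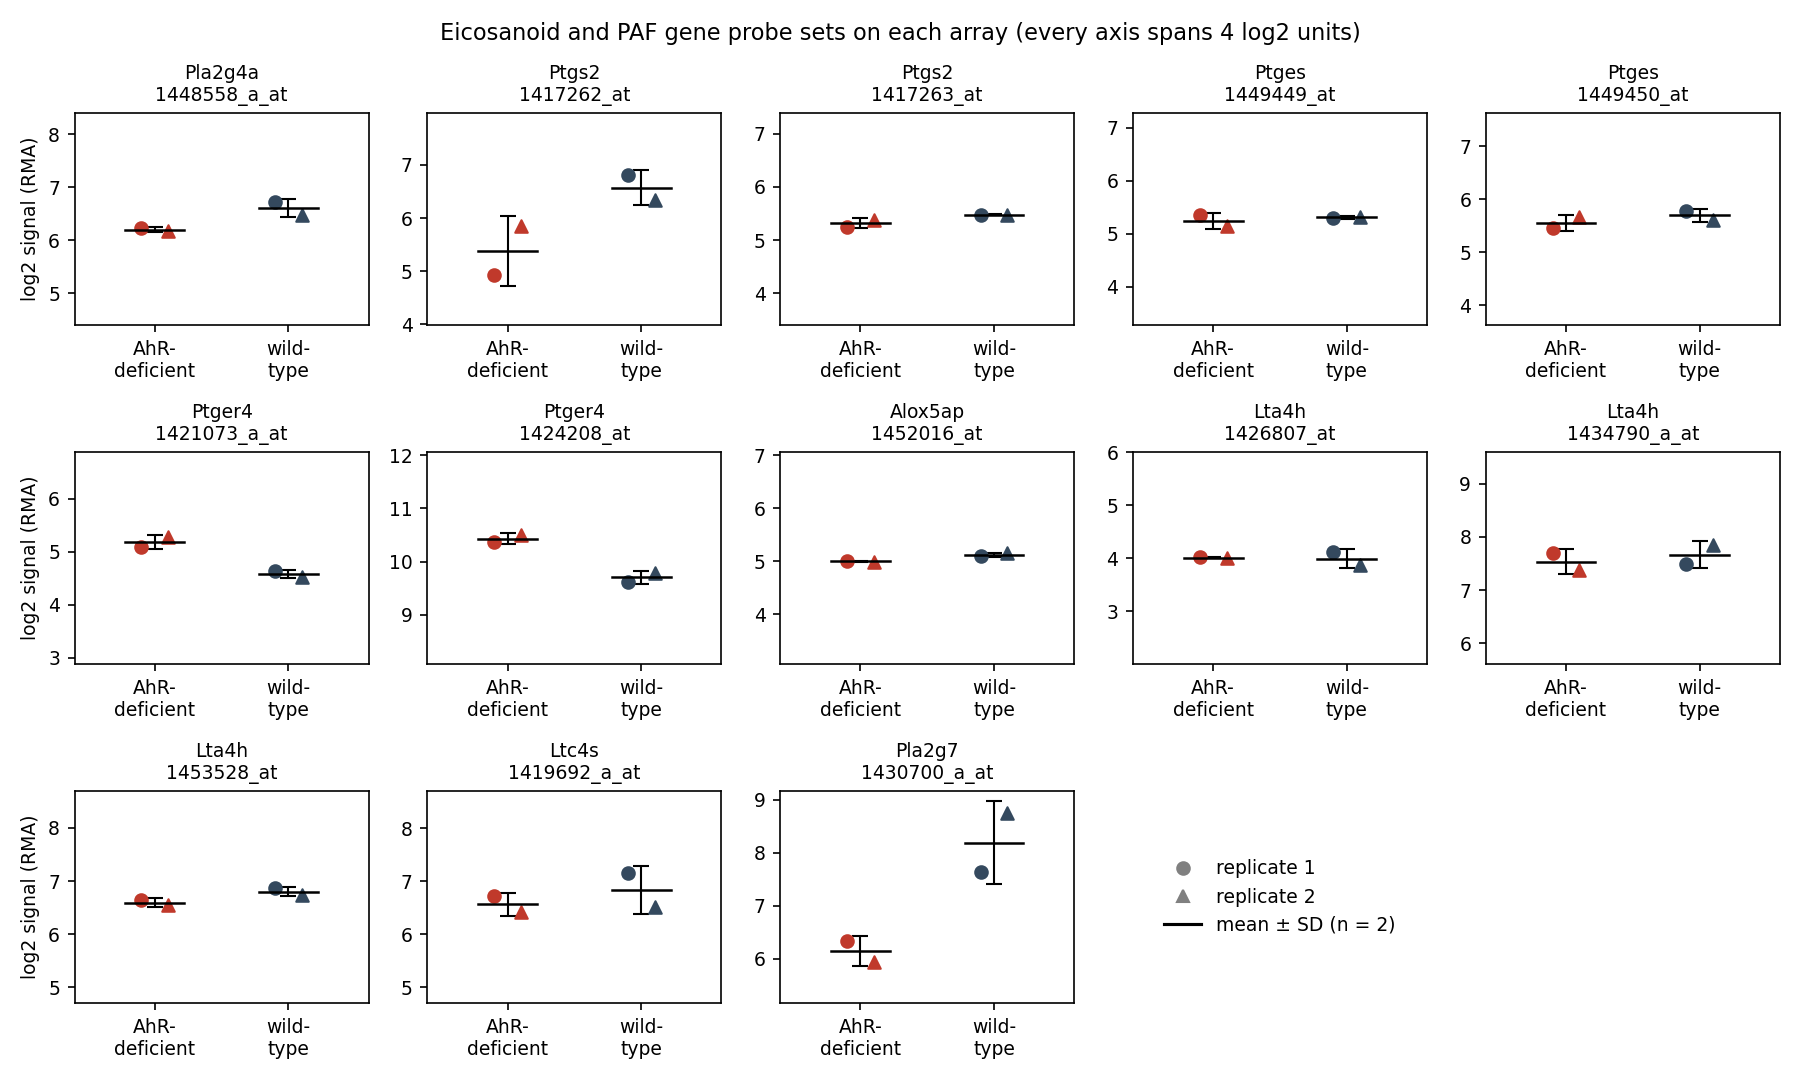
Log2 RMA signal of the 13 probe sets on each of the 4 arrays, AhR-deficient left and wild-type right in each panel, with circles for replicate 1, triangles for replicate 2 and bars for the mean ± SD of 2 arrays. Pla2g7 lies at 6.34 and 5.94 in AhR-deficient cells, against 7.63 and 8.74 in the wild type, and both Ptger4 probe sets lie higher in AhR-deficient cells.

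The promoter windows of the genes with the greatest differences are shown because AhR binds DNA, with its partner Arnt, at a short core of letters. Each runs from 250 bases before to 30 bases after the annotated gene start, 5' to 3' on the gene's strand, from RefSeq on GRCm38.p6. Pla2g7 is at chr17:43568201-43568480 on the plus strand, Ptgs2 at chr1:150099781-150100060 on the plus strand and Ptger4 at chr15:5244158-5244437 on the minus strand. Capitals mark every match, on either strand, to the AhR core GCGTG, to the half-site CGTCA of the cAMP response element, or to the E-box CACGTG.
Pla2g7: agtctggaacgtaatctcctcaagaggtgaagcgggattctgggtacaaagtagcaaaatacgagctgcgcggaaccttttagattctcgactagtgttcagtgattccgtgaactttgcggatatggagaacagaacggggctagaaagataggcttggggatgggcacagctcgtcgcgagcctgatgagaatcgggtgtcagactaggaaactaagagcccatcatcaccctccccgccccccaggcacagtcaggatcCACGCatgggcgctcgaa
Ptgs2: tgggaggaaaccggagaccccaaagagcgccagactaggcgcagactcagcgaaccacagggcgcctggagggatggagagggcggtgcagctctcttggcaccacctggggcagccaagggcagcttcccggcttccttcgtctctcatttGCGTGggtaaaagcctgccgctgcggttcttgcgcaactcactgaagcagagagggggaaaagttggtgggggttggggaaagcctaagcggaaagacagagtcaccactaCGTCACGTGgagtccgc
Ptger4: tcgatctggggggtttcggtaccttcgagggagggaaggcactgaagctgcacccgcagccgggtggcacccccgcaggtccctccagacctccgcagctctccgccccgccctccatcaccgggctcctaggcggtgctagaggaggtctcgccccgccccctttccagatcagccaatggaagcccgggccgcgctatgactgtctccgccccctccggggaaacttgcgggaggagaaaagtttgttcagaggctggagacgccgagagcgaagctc
In Pla2g7 the AhR core starts 13 bases into the transcribed part, on the strand opposite to the gene. In Ptgs2 it starts at position -98 from the gene start, and a CRE half-site and an E-box that share 2 bases begin at positions 14 and 17. The Ptger4 window has none of the 3 motifs.

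The AhR core was found in 4 of the 9 listed genes with a window, Pla2g4a, Ptgs2, Ptges and Pla2g7, which is 4 of 10 windows, since Pla2g4a has 2 starts. Among all 32851 windows of this length, 30.8% held it. The CRE half-site and the E-box were each found in 1 of the 9 genes, Ptgs2, and in 19.9% and 6.79% of all windows. These are matches of letters and no measurement of binding. No window was found for Alox5ap.

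**Figure D2:**
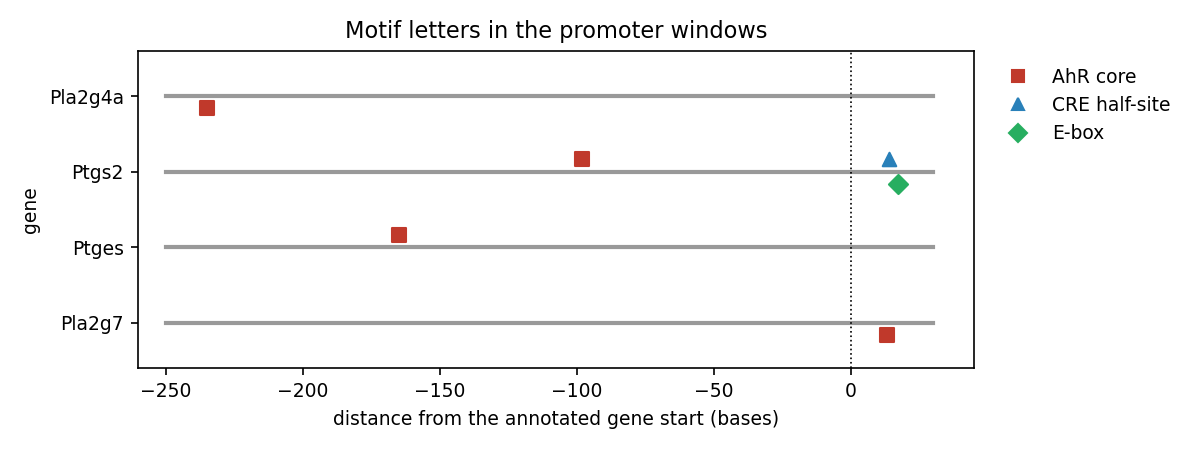
Start of each motif match against the distance from the annotated gene start in bases, for the 4 listed genes that hold any match. Squares are the AhR core, above the line where it reads on the gene's strand and below where it reads on the other, the triangle is the CRE half-site, and the diamond is the E-box, which reads alike on both strands. Only Ptgs2 holds all 3 motifs.

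The pathway starts with Pla2g4a, cytosolic phospholipase A2, which frees arachidonic acid. Its signal was 6.23 and 6.17 in AhR-deficient cells, against 6.72 and 6.48 in the wild type. Neither AhR-deficient array reached the lower wild-type one, and the difference was -0.40 (SE 0.11). Pla2g4a is the direct protein-coding neighbour of Ptgs2 on chromosome 1 in RefSeq.

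Ptgs2 encodes cyclooxygenase 2, the inducible enzyme that makes the precursor of the prostaglandins. With probe set 1417262_at it read 4.92 and 5.85 in AhR-deficient cells, against 6.81 and 6.34 in the wild type. The genotypes did not overlap, but the AhR-deficient arrays stood 0.92 apart and the wild-type arrays 0.47, against a difference of -1.19 (SE 0.36). The value rests in part on single arrays: it was -0.72 with AhR-deficient replicate 1 left out and -1.65 with AhR-deficient replicate 2 left out. Its other probe set, 1417263_at, read 5.25 and 5.38 in AhR-deficient cells, against 5.47 and 5.48 in the wild type. There the difference was -0.16 (SE 0.08), so the probe sets share the sign and not the size.

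Ptges encodes the microsomal synthase that completes prostaglandin E2. Probe set 1449450_at read 5.45 and 5.66 in AhR-deficient cells, against 5.78 and 5.61 in the wild type, and 1449449_at read 5.35 and 5.14 in AhR-deficient cells, against 5.29 and 5.32 in the wild type. The genotypes overlapped in both, with differences of -0.14 (SE 0.12) and -0.06 (SE 0.10).

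Ptger4 encodes EP4, a receptor for prostaglandin E2 that raises cyclic AMP, and was the one gene here with more signal in AhR-deficient cells on every probe set. With 1424208_at it read 10.36 and 10.50 in AhR-deficient cells, against 9.61 and 9.79 in the wild type. With 1421073_a_at it read 5.09 and 5.27 in AhR-deficient cells, against 4.63 and 4.53 in the wild type. Neither overlapped, and the differences were 0.73 (SE 0.11), a ratio of 1.66, and 0.60 (SE 0.10). The spread within a genotype was at most 0.18 on either probe set. On the second probe set 1 of the 4 arrays, wild-type replicate 2, lay below its 25th percentile, and adding 16 on the linear scale lowered that difference to 0.39.

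Among the listed leukotriene genes with array signal, Alox5ap, Ltc4s and Lta4h, no genotype difference over all 4 arrays went past 0.3. The 5-lipoxygenase gene itself, Alox5, had no array signal here. Alox5ap encodes the protein that presents arachidonic acid to 5-lipoxygenase, and read 5.01 and 4.99 in AhR-deficient cells, against 5.09 and 5.15 in the wild type. These did not overlap, with a difference of -0.12 (SE 0.08). Ltc4s, the synthase of the cysteinyl leukotriene C4, read 6.72 and 6.41 in AhR-deficient cells, against 7.15 and 6.52 in the wild type. The genotypes overlapped, and the difference was -0.27 (SE 0.25). It depended on single arrays: leaving out wild-type replicate 1 gave 0.05 and wild-type replicate 2 gave -0.58, while AhR-deficient replicate 1 gave -0.42 when left out and its fellow replicate -0.11.

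Lta4h, the hydrolase that makes leukotriene B4, had 3 probe sets that disagreed in sign. Probe set 1434790_a_at read 7.70 and 7.37 in AhR-deficient cells, against 7.49 and 7.85 in the wild type, a difference of -0.14 (SE 0.18) with overlap. Probe set 1453528_at read 6.65 and 6.54 in AhR-deficient cells, against 6.86 and 6.74 in the wild type, a difference of -0.20 (SE 0.09) without overlap. The third, 1426807_at, read 4.02 and 4.01 in AhR-deficient cells, against 4.12 and 3.87 in the wild type, below the 25th percentile on all 4 arrays, with a difference of 0.02 (SE 0.11).

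Pla2g7 encodes the secreted PAF acetylhydrolase, known as a product of macrophages, and had the greatest difference of the 8 genes. It read 6.34 and 5.94 in AhR-deficient cells, against 7.63 and 8.74 in the wild type. Every AhR-deficient array lay below every wild-type array, with a gap of 0.39 between the AhR-deficient arrays and of 1.11 between the wild-type arrays. The difference was -2.04 (SE 0.41), a wild-type level 4.12 times the AhR-deficient one. It was -1.49 without wild-type replicate 2, whose signal was the highest, and -2.60 without wild-type replicate 1. Pla2g7 has 1 probe set, so no second one checks it.

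**Figure D3:**
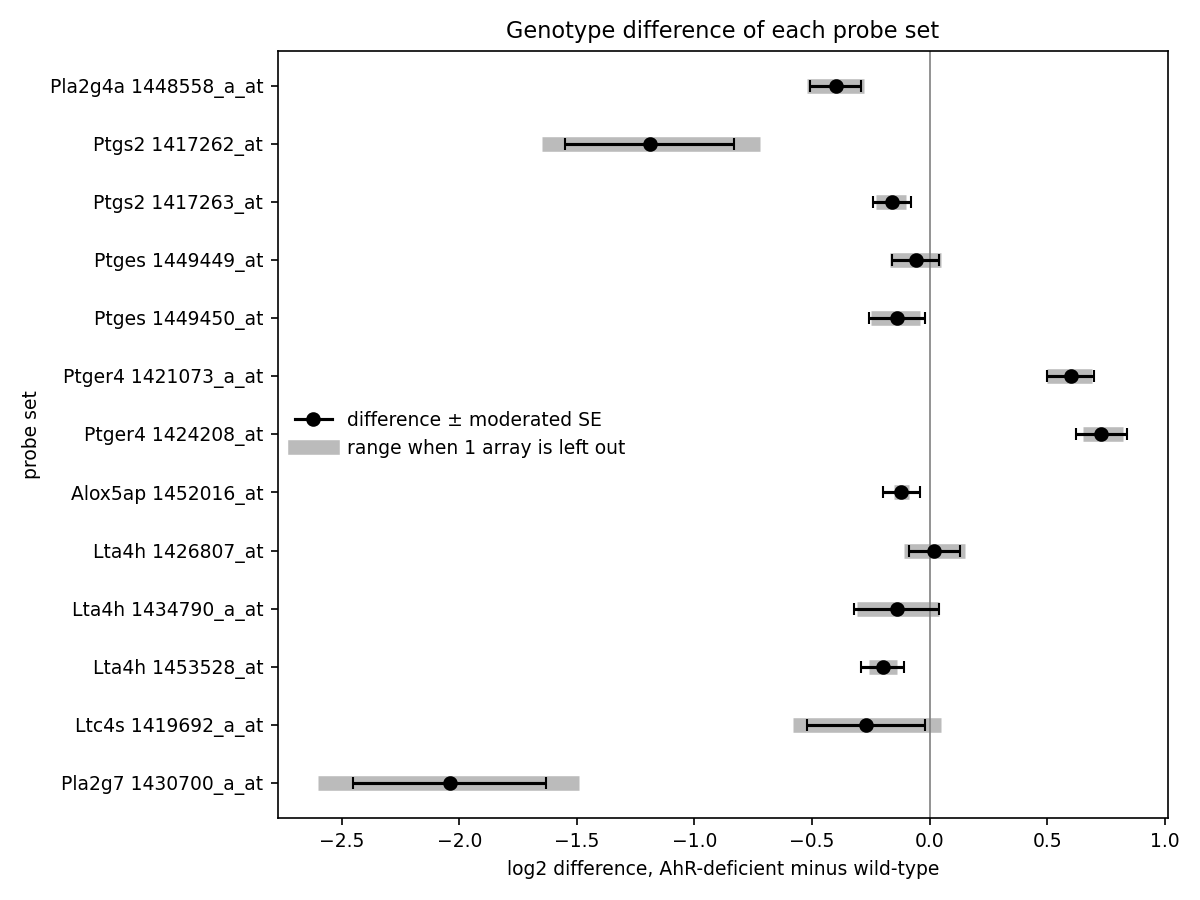
Log2 difference, AhR-deficient minus wild-type, of each of the 13 probe sets (points, with bars of 1 moderated SE) and its range when any 1 array is left out (grey). Pla2g7 spans -2.60 to -1.49 and Ptgs2 1417262_at -1.65 to -0.72, both below 0, while both Ptger4 probe sets stay above 0. Where the genotypes do not overlap, as on these probe sets, leaving out 1 array cannot change the sign.

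Among the 12393 genes, those whose values over the 4 arrays ran closest to Pla2g7, by root mean square distance after centring each gene on its mean, were Depdc7 (0.24), Ncf4 (0.28) and Dusp16 (0.33). Ncf4, a subunit of the phagocyte NADPH oxidase, read 7.05 and 6.40 in AhR-deficient cells, against 8.83 and 9.66 in the wild type. For Ptgs2 the closest were Tpm2 (0.06), Hsd17b11 (0.18) and Cdkn1b (0.19). Tpm2, a tropomyosin, read 7.98 and 8.96 in AhR-deficient cells, against 10.03 and 9.44 in the wild type, so it shares the low AhR-deficient replicate 1 and the high wild-type replicate 1 with Ptgs2. These likenesses rest on 4 arrays and describe them only.

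The other genes of the pathways give the setting, with 57 measured of 72 listed. In limma 0 passed an adjusted p of 0.05 in either direction (smallest adjusted p = 0.811), where 0.0323% of all genes passed as lower and 0% as higher, and at an unadjusted p under 0.05 there were 2 lower and 0 higher. Over all genes the unadjusted shares were 3.04% lower and 3.50% higher. Without overlap 8 were lower and 9 higher, where 16.6% and 18.8% of all genes were, and the median difference was -0.01 over the 57 and 0.01 over all genes. At the probe set used, Alox12b, Alox8, Cyp4f18, Mgst1, Pla2g6, Ptgis, Cmklr1, Ptger2, Ptger3 and Ptgir lay below the 25th percentile on all 4 arrays.

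Both genes past the unadjusted p were lower in AhR-deficient cells. Pla2g2d, a secreted phospholipase A2 known from dendritic cells of lymphoid tissue, read 6.24 and 5.59 in AhR-deficient cells, against 6.67 and 6.55 in the wild type. Its difference was -0.70 (SE 0.24), and its other probe set gave -0.79 (SE 0.13) with 5.70 and 5.61 in AhR-deficient cells, against 6.30 and 6.59 in the wild type. In limma the adjusted p was 0.811 for the first and 0.528 for the other. Gpx4, a glutathione peroxidase that reduces lipid hydroperoxides, read 8.20 and 8.51 in AhR-deficient cells, against 8.99 and 8.69 in the wild type, a difference of -0.48 (SE 0.16, limma adjusted p = 0.811).

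The remaining phospholipases A2 named by rule differed little, Pla2g5 by -0.15 (SE 0.09) and Pla2g2f by 0.07 (SE 0.07). Of 10 prostanoid synthases and catabolic enzymes, 1 was lower and 2 higher without overlap, where 16.6% and 18.8% of all genes were. These were Ptgds by -0.05 (SE 0.08), Ptges2 by 0.10 (SE 0.08) and Tbxas1, thromboxane synthase, by 0.05 (SE 0.07). Hpgds, the haematopoietic prostaglandin D2 synthase, read 6.97 and 6.77 in AhR-deficient cells, against 6.26 and 7.03 in the wild type, with overlap. The 8 other prostanoid receptors all overlapped between genotypes, with differences from -0.13 to 0.06, and none was tested against Ptger4. Ptger2, Ptger3 and Ptgir lay below the 25th percentile on all 4 arrays and Ptgfr on 3, so their small differences say little.

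Of 14 lipoxygenases and leukotriene enzymes, 4 were lower and 3 higher without overlap, where 16.6% and 18.8% of all genes were. Among them were Ggt5 by 0.13 (SE 0.08) and Alox12e by -0.16 (SE 0.11). Of 5 leukotriene and resolvin receptors, 0 were lower and 2 higher without overlap, Cysltr1 and Cysltr2, each by 0.12. Of 7 PAF genes other than Pla2g7, 1 was lower without overlap, Pafah2, an intracellular PAF acetylhydrolase, by -0.25 (SE 0.11). The PAF receptor Ptafr and the acyltransferase Lpcat1, which can form PAF, overlapped, with 5.72 and 5.67 in AhR-deficient against 5.71 and 5.66 in wild-type cells, and 9.71 and 9.30 in AhR-deficient against 9.35 and 8.88 in wild-type cells. The other 2 Lpcat1 probe sets were higher without overlap, by 0.43 (SE 0.18) and 0.17 (SE 0.09).

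**Figure D4:**
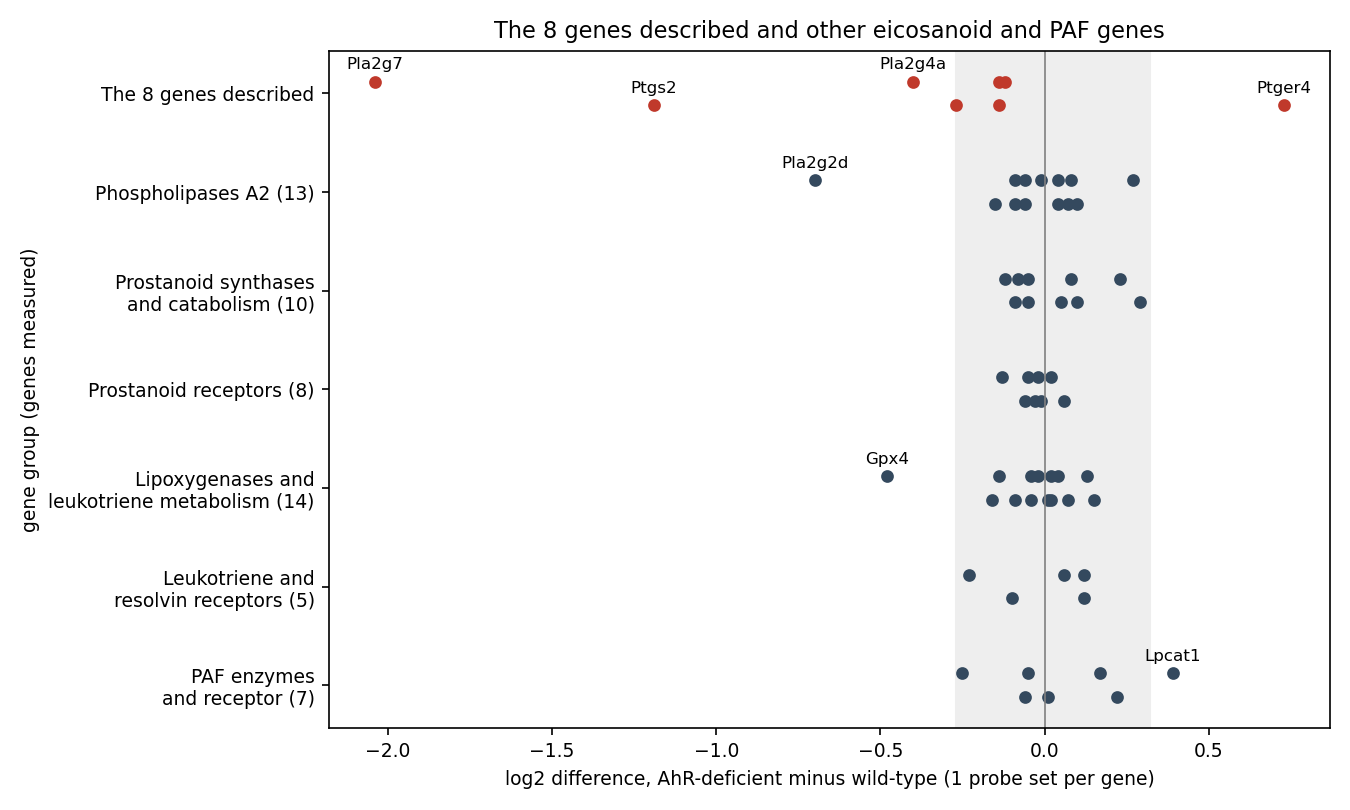
Log2 difference, AhR-deficient minus wild-type, of the 8 genes described (top row) and of the 57 other pathway genes by group, with 1 point for each gene at its probe set of highest mean. The grey band runs from the 5th to the 95th percentile of all genes, -0.27 to 0.32. Pla2g7, Ptgs2, Pla2g4a and Ptger4 lie outside it, as do Pla2g2d, Gpx4 and Lpcat1. The 8 genes described were chosen with these differences in view, so nothing is read from their place against the band. The other Ptgs2 probe set, 1417263_at, which is not drawn, has a difference of -0.16, inside the band.

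Markers of other cell types were read on the same arrays, as the summed linear signal of each list and as counts of genes without overlap between genotypes, where 16.6% of all genes were lower and 18.8% higher. Of 11 macrophage and neutrophil markers, 2 were lower and 5 higher, and the sum was 1396 and 1031 in AhR-deficient cells, against 802 and 951 in the wild type. The members ran in opposite directions. C1qb, a complement subunit, read 8.27 and 7.97 in AhR-deficient cells, against 6.61 and 7.32 in the wild type, while Adgre1, a surface receptor used to mark mouse macrophages, read 6.92 and 5.84 in AhR-deficient cells, against 7.11 and 7.43 in the wild type. Whether these signals came from macrophages or from the Langerhans cells themselves was not tested. Of 10 mast cell markers, 2 were lower and 3 higher, with sums of 440 and 447 in AhR-deficient cells, against 478 and 464 in the wild type. Kit, the receptor of stem cell factor, had the greatest difference of these, -0.64 (SE 0.12), with 5.57 and 5.67 in AhR-deficient cells, against 6.39 and 6.14 in the wild type; its other probe set overlapped, with -0.09 (SE 0.12). The mast cell protease Cpa3 read 5.25 and 5.47 in AhR-deficient cells, against 5.34 and 5.37 in the wild type, with overlap.

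Of 14 keratinocyte markers, 1 was lower and 7 higher without overlap, where 16.6% and 18.8% of all genes were, with sums of 1044 and 546 in AhR-deficient cells, against 480 and 525 in the wild type. Of 11 T cell markers, 4 were lower and 0 higher, with sums of 498 and 525 in AhR-deficient cells, against 610 and 556 in the wild type. Of 6 platelet markers, 1 was lower and 2 higher, with sums of 569 and 454 in AhR-deficient cells, against 416 and 409 in the wild type. The greatest difference was 1.32 (SE 0.43) among keratinocyte markers, for the desmosomal Dsp, and -1.26 (SE 0.15) among T cell markers, for the receptor subunit Cd3g. Among platelet markers it was 1.64 (SE 0.33), for the chemokine Pf4, and Ppbp, also higher without overlap, differed by 0.95 (SE 0.40). Dsp read 6.60 and 5.45 in AhR-deficient cells, against 4.47 and 4.93 in the wild type. Cd3g lay below the 25th percentile on 2 arrays. The genotypes overlapped in 6 keratinocyte, 7 T cell and 3 platelet markers. Among these were the T cell marker Cd3e, with -0.07 (SE 0.13), and the platelet marker Itga2b, with 0.00 (SE 0.11).

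Of the 14 Langerhans cell markers, 1 was lower and 6 higher without overlap, with sums of 32845 and 30042 in AhR-deficient cells, against 24353 and 27978 in the wild type. Here too members ran in opposite directions. H2-Aa, a chain of MHC class II, by which the cells were sorted, differed by 1.31 (SE 0.14). For Cd74, its chaperone, the difference was 0.93 (SE 0.12). Csf1r, the receptor through which IL-34 keeps Langerhans cells in the skin, differed by -1.05 (SE 0.26), and of its other probe sets 1 did not overlap, with -0.93 (SE 0.20), and 1 overlapped, with -0.58 (SE 0.39). The genotypes did not overlap in any of these 6 sums, but they did in the melanocyte sum and in the fibroblast and endothelium sum. Such sums have no share over all genes beside them, so nothing is read from their separation. For keratinocytes the separation was narrow, with 546 in AhR-deficient replicate 2 against 525 in wild-type replicate 2, and the high value was AhR-deficient replicate 1 alone. Log2 values have no 0, and 5 keratinocyte, 2 macrophage and neutrophil, 1 T cell and 0 mast cell markers lay below the 25th percentile on all arrays. That percentile is no limit of detection, so a reading above it does not show that a gene is expressed. The part of other cells, or of the state of the Langerhans cells, in the differences of Pla2g7, Ptgs2, Pla2g4a and Ptger4 was not tested.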

How the data were processed

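Total RNA of sorted Langerhans cells was amplified, given a biotin label and measured on Affymetrix MOE430A chips, per the labels' protocols. The deposited values are log2 expression per probe set, made with affy and RMA per the submitters' processing notes; RMA subtracts background, brings the arrays to 1 distribution of values and combines the probes of each set. Tool versions and the genome build: not given in the sources used here.

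Of 22690 probe sets, 64 controls were left out. The platform annotation gave 1 symbol to 20380, several to 691 and none to 1555, and 0 symbols changed through Entrez identifiers against RefSeq. The test of genotype, on 2 arrays each, was limma (version 3.58.1, R version 4.3.3; lmFit, eBayes, residual degrees of freedom 2, prior 2.27, two-sided, Benjamini-Hochberg over 22626 probe sets), after the steps were tested on simulated data. The number of arrays limits the precision. Where the labels do not count animals, p-values measure only the spread between these samples.

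A gene was represented by its probe set of highest mean. Every probe set of a listed gene was named, with, of each pathway list, up to 3 genes of smallest p without overlap where none passed, and the 3 closest genes to Pla2g7 and Ptgs2; Hpgds, Lpcat1, Ptafr, the second Pla2g2d probe set, Adgre1, Cd74, Csf1r and the second Kit probe set were added after their values were seen. Of each marker list the rule took 2 defining markers and that of greatest difference, of which some are printed. The platelet marker Itga2b was named outside this rule. The genes and lists were chosen with earlier results of these data known. Marker lists of melanocytes (sums of 450 and 439 in AhR-deficient, against 424 and 472 in the wild type) and of fibroblasts and endothelium (404 and 428 in AhR-deficient, against 444 and 414 in the wild type) overlapped between genotypes.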

Additional observations from a re-analysis of the deposited data

How the results depend on the processing

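The fit was repeated with the replicate number as a block, with an intensity trend, with robust shrinkage, with array weights, without dim or suffixed (_s_at, _x_at, _a_at) probe sets, after median centring or a further quantile normalisation, with 16 added on the linear scale, on gene means of probe sets, and without each array. None of these gave a call among the other pathway genes, in either direction. The 6 lower and 2 higher probe sets without overlap became 4 and 1 when the suffixed probe sets were left out. That step removes 5 of the 13, those of Pla2g7 and Pla2g4a among them. With 1 array left out the counts ranged from 7 to 9 and from 2 to 3. Leaving out an array can only keep or raise such counts, so these ranges are no check of them. The median difference of the described probe sets stayed between -0.17 and -0.11. Over all probe sets, the 4 lower calls became 0 with 16 added, 0 with the replicate block, 2 without the suffixed probe sets, 7 lower and 1 higher with a trend, and ranged from 0 to 0 with 1 array left out. The cause was not tested.

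The deviations of same-numbered arrays correlated at -0.31 across probe sets, so same-numbered arrays did not vary together. Whether same-numbered samples were prepared together cannot be told from this value. Blocking on crossed numbers, chosen after seeing the data, gave 0 lower and 0 higher calls. With 1 array left out, differences of Pla2g7, Ptgs2, Pla2g4a, Alox5ap and Ptger4 kept their sign on every probe set. That outcome was fixed, since the genotypes did not overlap on these probe sets, and it is no check of them. Differences of Ltc4s and of 1 Ptges and 2 Lta4h probe sets changed sign.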
